A study of Mus musculus with 35 samples.

Results

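The inner cell mass (ICM) of the mouse blastocyst at embryonic day (E) 3.5 was compared with the epiblast at E4.5, by bulk RNA sequencing of 3 libraries for each stage. These 6 libraries are 6 of the 35 samples of a series that also holds later epiblasts and cultured epiblast stem cells. The embryos are labelled as CD-1 strain, and the study took them from natural matings of CD1 mice or of the Pdgfrα:H2B-GFP line, in which a nuclear GFP reports the *Pdgfra* gene. Each library pooled 10 embryos, and the sex of the embryos is not labelled. At E3.5 the ICM was cut away from the trophectoderm with a laser, and the whole ICM was used. At E4.5 the trophectoderm was lysed by immunosurgery with antiserum and rat serum, the ICM was dissociated with trypsin, and GFP-negative cells were picked by hand as epiblast. Stage, selection of cells and handling therefore changed together, and their parts in a difference between the groups cannot be told apart. In bulk samples, fewer cells of a type and less RNA per cell cannot be told apart either. The labels only number the libraries, so the p-values measure the spread between these libraries.

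The ICM is the inside group of cells of the blastocyst, surrounded by the trophectoderm, the outer epithelium that forms the placenta. Its cells first co-express epiblast and primitive endoderm regulators and then separate, with NANOG favouring the epiblast and FGF4 signalling through ERK favouring GATA6 and the primitive endoderm, the epithelium that forms the yolk sac. The epiblast, the source of the embryo itself, is in naive pluripotency before implantation, passes through a formative phase as it implants and is primed for the germ layers at gastrulation.

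Expression was measured in transcripts per 1000000 (TPM), a share of all transcripts of a library that is corrected for gene length, so the values keep no record of depth. A gene was tested if it was autosomal and above 2 TPM in at least 3 of the 6 libraries, and was called if the limma adjusted p was below 0.05 and the log2 fold change of TPM + 1 was over 1 in size. Fold changes are E4.5 against E3.5 on this scale, which understates the change of genes with low TPM. The E3.5 libraries had 24356 to 24558 genes above 0 TPM and the E4.5 libraries 20324 to 20806. The mitochondrial share of all TPM was 13.8 to 14.4% at E3.5 and 17.2 to 18.6% at E4.5. Pairs of E3.5 libraries differed by a median of 0.128 to 0.140 on the log2 scale and pairs of E4.5 libraries by 0.222 to 0.250 (Pearson's r across genes 0.982 to 0.986 and 0.956 to 0.965). The first principal component held 76.9% of the variance and separated the stages.

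Both groups were checked against markers of the 3 lineages of the blastocyst. The summed level of 7 epiblast markers was 960 to 975 TPM at E3.5 and 702 to 755 TPM at E4.5. The summed level of 12 primitive endoderm markers was 1508 to 1579 TPM at E3.5 and 551 to 592 TPM at E4.5, with all 12 above 2 TPM in each of the 6 libraries. The summed level of 12 trophectoderm markers was 3329 to 3399 TPM at E3.5 and 3027 to 3197 TPM at E4.5, and 417 to 450 TPM (449.96 in the highest library) in the E5.5 epiblast of the same series. At E3.5, 9 to 10 of these 12 were above 2 TPM, and at E4.5, 11 were. Without the 4 keratins, the remaining 8 summed to 665 to 685 TPM, 538 to 564 TPM and 86.5 to 94.4 TPM at the 3 stages. The summed trophectoderm markers were thus high in both groups although the dissection was meant to remove that layer. Of 33 tested genes of a longer trophectoderm list, given below, 11 were lower at E4.5, 6 were higher and 16 were not called. Primitive endoderm markers were lower but present in the picked E4.5 cells. The part of these transcripts in the results that follow was not tested.

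**Figure D1:**
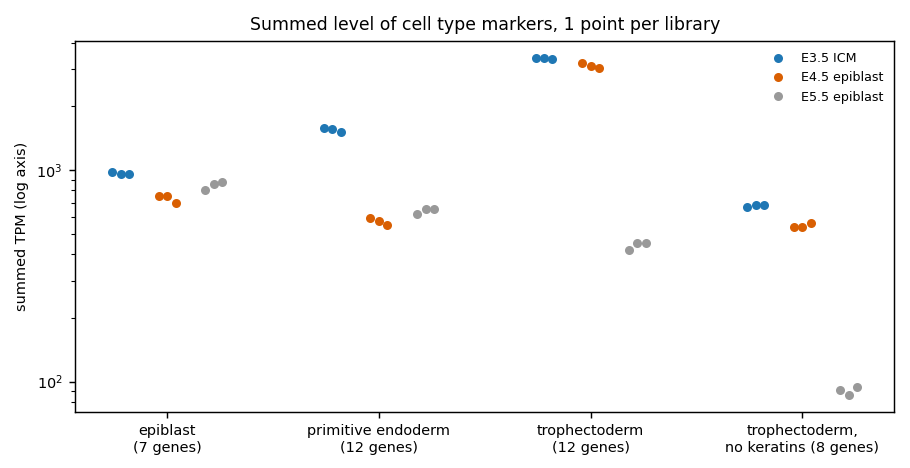
Summed TPM (log axis) of the marker genes of each lineage, with 1 point for each library at E3.5, E4.5 and E5.5. The trophectoderm sums of 3329 to 3399 TPM at E3.5 and 3027 to 3197 TPM at E4.5 sit close together and above the E5.5 libraries, and the primitive endoderm sum drops from 1508 to 1579 TPM at E3.5 to 551 to 592 TPM at E4.5.

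Of 12580 genes tested, 740 were higher (5.88%) and 1677 were lower (13.3%) at E4.5, or 19.2% in either direction. Over these 12580 genes, the log2 fold changes had a median of -0.14. Rescaling the libraries by median-of-ratios factors moved this median to -0.0095 and changed the split to 902 higher and 1414 lower, so that 38.95% of calls were higher in place of 30.6%. Of the 740 higher genes, 236 had no E3.5 library above 2 TPM, and of the 1677 lower genes, 491 had no E4.5 library above 2 TPM. Such genes passed the filter through the group where they were high and had to differ. When 1 library of that group was left out, they no longer passed in 3 libraries and were not tested, which lowers the counts of the lists that hold them.

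Among protein-coding genes with a mean of 10 TPM or more in the higher group, the largest rise was that of *Lef1*, a transcription factor of the Wnt pathway (ENSMUSG00000027985.14, chr3:131110471-131224356 of mm10). Its level was 0.0395, 0.09598 and 0.0388 TPM at E3.5 and 78.2, 72.6 and 85.7 TPM at E4.5 (log2 fold change 6.23, SE 0.10, limma adjusted p = 3.6e-06). The immediate early gene *Fos* (ENSMUSG00000021250.13, chr12:85473890-85477273) had 5.55, 6.62 and 5.13 TPM at E3.5 and 389.6, 389 and 419 TPM at E4.5 (log2 fold change 5.89, SE 0.11, limma adjusted p = 3.8e-06). Its relative *Fosb* (ENSMUSG00000003545.3, chr7:19302696-19310051) had 2.08, 2.79 and 1.5 TPM at E3.5 and 212, 173 and 160.2 TPM at E4.5 (log2 fold change 5.88, SE 0.19, limma adjusted p = 1.2e-05). All 3 were below 7 TPM in each E3.5 library and above 72 TPM in each E4.5 library. *Slc16a3*, which encodes the lactate exporter MCT4 (ENSMUSG00000025161.16, chr11:120948480-120960868), had 0.237, 0 and 0.185 TPM at E3.5 and 47.1, 59.7 and 68.4 TPM at E4.5 (log2 fold change 5.69, SE 0.17, limma adjusted p = 1.1e-05). *Ctsll3*, a cathepsin L-like protease gene (ENSMUSG00000056728.6, chr13:60798250-60802849), had 0.123, 0 and 0 TPM at E3.5 and 32.9, 31.9 and 31.3 TPM at E4.5 (log2 fold change 4.99, SE 0.09, limma adjusted p = 3.6e-06). *Irx1*, an Iroquois homeobox gene (ENSMUSG00000060969.9, chr13:71957921-71963723), had 1.73, 0.809 and 1.05 TPM at E3.5 and 62.4, 58.1 and 70.2 TPM at E4.5 (log2 fold change 4.89, SE 0.17, limma adjusted p = 1.4e-05).

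In the other direction, *Csf3r*, which encodes the receptor of granulocyte colony-stimulating factor (ENSMUSG00000028859.14, chr4:126024550-126044440), had 122, 116 and 128 TPM at E3.5 and 0, 1.04 and 0 TPM at E4.5, so that it was listed at 0 in 2 of the 3 E4.5 libraries (log2 fold change -6.60, SE 0.29, limma adjusted p = 2.6e-05). *Pramel5* (ENSMUSG00000036749.15, chr4:144270633-144280488) had 85.4, 85.96 and 94.6 TPM at E3.5 and was listed at 0 in all 3 E4.5 libraries. *Adh1*, an alcohol dehydrogenase gene (ENSMUSG00000074207.10, chr3:138260991-138290698), had 185, 198 and 169 TPM at E3.5 and 1.42, 1.88 and 0.412 TPM at E4.5 (log2 fold change -6.43, SE 0.27, limma adjusted p = 2.3e-05). All 3 were abundant in each ICM library and at or near 0 in the epiblast libraries. *Pramel6* (ENSMUSG00000025838.12, chr2:87506565-87510872) had 113, 126 and 122 TPM at E3.5 and 0.463, 0.378 and 0.993 TPM at E4.5 (log2 fold change -6.26, SE 0.16, limma adjusted p = 1e-05). *Pramel7* (ENSMUSG00000025839.3, chr2:87489087-87497093) had 265, 234 and 229.6 TPM at E3.5 and 2.18, 3.13 and 3.88 TPM at E4.5 (log2 fold change -5.93, SE 0.17, limma adjusted p = 1.1e-05). *Enpep*, an aminopeptidase gene (ENSMUSG00000028024.14, chr3:129269175-129332720), had 198, 200.2 and 186 TPM at E3.5 and 2.703, 2.59 and 2.06 TPM at E4.5 (log2 fold change -5.83, SE 0.11, limma adjusted p = 3.6e-06). In none of these 12 genes did the libraries of the groups overlap, which was part of the rule that chose them.

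**Figure D2:**
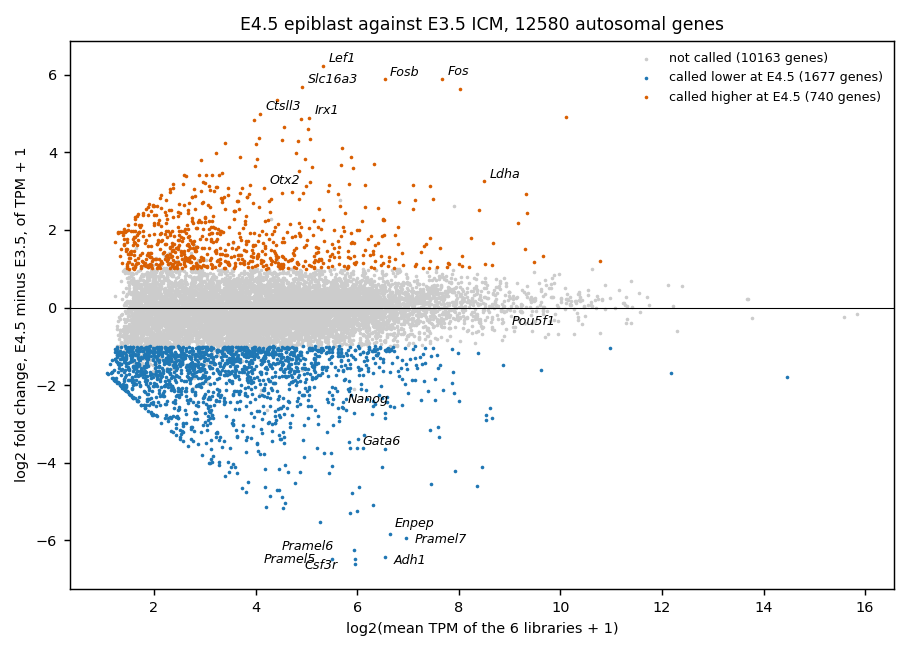
Log2 fold change of TPM + 1 (E4.5 minus E3.5) against the log2 mean TPM + 1 of the 6 libraries for the 12580 genes tested, 1 point per gene. The 740 genes called higher and the 1677 called lower are coloured, and the 12 genes with the largest changes lie at the upper and lower edges of the cloud.

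Of 17 tested core pluripotency genes, none was higher and 2 were lower (11.8%), near the 13.3% of all genes tested, with a median log2 fold change of -0.04 beside -0.14 for all genes tested. *Pou5f1*, which encodes OCT4 (ENSMUSG00000024406.16, chr17:35506018-35510772), had 584, 577 and 575 TPM at E3.5 and 393, 419.8 and 378 TPM at E4.5, a difference below the call threshold (log2 fold change -0.54, SE 0.09, limma adjusted p = 0.0034). *Sox2*, its partner, had 54.9, 55.6 and 46.2 TPM at E3.5 and 34.5, 28.7 and 37.4 TPM at E4.5 (log2 fold change -0.63, SE 0.14, limma adjusted p = 0.012). Both genes were lower in each E4.5 library than in any E3.5 library, by less than the fold change a call required. *Nanog* (ENSMUSG00000012396.12, chr6:122707489-122714633) differed more, at 90.1, 89.9 and 83.6 TPM at E3.5 and 11.3, 18.9 and 13.1 TPM at E4.5 (log2 fold change -2.56, SE 0.19, limma adjusted p = 0.00016), so that the E3.5 mean was 6.099 times the E4.5 mean. Its E5.5 level was 25.6, 25.2 and 20.3 TPM. *Dppa2*, a chromatin factor of pluripotent cells, fell from 123, 122 and 124 TPM to 49.4, 50.8 and 48.2 TPM (log2 fold change -1.30, SE 0.08, limma adjusted p = 8.2e-05), while its partner *Dppa4* had 71.8, 76.9 and 85.6 TPM at E3.5 and 82.1, 95.8 and 102 TPM at E4.5 and overlapping groups. *Zfp42*, which encodes the pluripotency marker REX1, had 146, 139.7 and 138 TPM at E3.5 and 209, 195 and 198 TPM at E4.5, above the E3.5 level in each E4.5 library without being called (log2 fold change 0.50). *Utf1*, a chromatin-associated factor that continues into the primed epiblast, had 125, 132 and 115 TPM at E3.5 and 208, 217 and 228 TPM at E4.5 and was not called either (log2 fold change 0.81).

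The naive pluripotency genes went mostly down. Of 19 tested, 11 were lower and none was higher, against backgrounds of 13.3% and 5.88%, and their median log2 fold change was -1.42. The largest of these falls was that of *Nr5a2*, a nuclear receptor that activates *Pou5f1*, with 104, 99.3 and 115 TPM at E3.5 and 9.18, 7.92 and 6.24 TPM at E4.5 (log2 fold change -3.62, SE 0.15, limma adjusted p = 2.1e-05). *Dppa3*, a maternal-effect gene whose product STELLA protects DNA from methylation changes, had 343, 388 and 333 TPM at E3.5 and 31.4, 35.9 and 35.05 TPM at E4.5 (log2 fold change -3.34, SE 0.11, limma adjusted p = 1.2e-05). *Spic*, an ETS factor, had 15.4, 15.1 and 17.9 TPM at E3.5 and 0.768, 0.847 and 0.857 TPM at E4.5 (log2 fold change -3.23, SE 0.10, limma adjusted p = 1.1e-05). The E3.5 and E4.5 libraries of these 3 genes were far apart, which follows from naming the largest falls, and within each stage the values differed little. In 2 of the 11 lower genes, no E4.5 library was above 2 TPM. When any 1 library was left out, 9 to 12 were lower.

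*Tbx3*, a T-box repressor, fell from 137, 129.7 and 138 TPM to 16.9, 21.4 and 20.1 TPM (log2 fold change -2.74), and *Tfcp2l1*, a target of STAT3, from 164, 171 and 170.3 TPM to 28.1, 30.3 and 27.1 TPM (-2.53). *Prdm14*, a repressor of FGF signalling and of de novo methylation, fell from 5.81, 5.998 and 5.77 TPM to 1.002, 0.949 and 0.998 TPM (-1.79). The Krüppel-like factors, zinc finger proteins that hold the naive network, were unequal. *Klf5* fell from 689.6, 657 and 709 TPM to 252, 234 and 247 TPM (log2 fold change -1.49, SE 0.09, limma adjusted p = 6.6e-05). *Klf4* fell from 129, 122 and 126 TPM to 54.3, 61.3 and 59.1 TPM (log2 fold change -1.10, SE 0.09, limma adjusted p = 0.00025), a call that was lost at -0.96 with median-of-ratios rescaling. *Klf2* had 78.2, 71.6 and 83.5 TPM at E3.5 and 78.6, 61.3 and 58.1 TPM at E4.5, with overlapping groups (log2 fold change -0.24, SE 0.14, limma adjusted p = 0.21). *Esrrb*, an orphan nuclear receptor, had 119.9, 117 and 116 TPM at E3.5 and 63.3, 68.8 and 60.2 TPM at E4.5 and stayed below the call threshold (log2 fold change -0.87, limma adjusted p = 0.00064). The part of the naive list that fell was therefore led by *Nr5a2*, *Dppa3*, *Spic*, *Jam2*, *Tbx3*, *Tet2* and *Tfcp2l1*, while *Klf2*, *Zfp42* and *Fgf4* were not called.

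The formative and primed epiblast genes went the other way. Of 29 listed, 24 were tested, 14 were higher (58.3%, beside 5.88% of all genes tested) and none was lower (beside 13.3%). Their median log2 fold change was 1.16. In 8 of the 14, no E3.5 library was above 2 TPM, so these passed the filter through the E4.5 libraries alone. Leaving out 1 E4.5 library lowered the count to between 5 and 6, because such genes then no longer passed in 3 libraries, and leaving out 1 E3.5 library kept it at 14. After *Lef1*, the largest rise was that of *Pou3f1*, which encodes the POU factor OCT6, with 0.7599, 0.486 and 0.295 TPM at E3.5 and 17.04, 15.6 and 12.5 TPM at E4.5 (log2 fold change 3.41, SE 0.16, limma adjusted p = 3.6e-05). *Fgf5*, the ligand that marks the implanting epiblast, had 0, 0.268 and 0 TPM at E3.5 and 9.296, 10.1 and 11.6 TPM at E4.5 (log2 fold change 3.38, SE 0.14, limma adjusted p = 2.1e-05). *Otx2*, a homeobox factor that directs OCT4 to new enhancers (ENSMUSG00000021848.16, chr14:48657677-48673819), had 2.66, 3.36 and 2.15 TPM at E3.5 and 22.7, 28.9 and 42.6 TPM at E4.5 (log2 fold change 3.09, SE 0.25, limma adjusted p = 0.00022). All 3 were at or below a few TPM in each ICM library and above 9 TPM in each epiblast library. Their E5.5 levels were 69.6, 73.3 and 81.3 TPM for *Pou3f1*, 94.2, 103 and 106 TPM for *Fgf5* and 141, 132 and 137 TPM for *Otx2*, in libraries made with another dissection and fragmentation.

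Several factors of the later epiblast and neural plate were also higher at E4.5, at low levels. *Sox11* had 0.479, 0.518 and 0.551 TPM at E3.5 and 7.75, 8.13 and 7.03 TPM at E4.5 (log2 fold change 2.51), *Sall2* had 0.8902, 0.515 and 0.662 TPM at E3.5 and 3.96, 6.12 and 5.94 TPM at E4.5 (1.90) and *Sox4* had 0.209, 0.0369 and 0.397 TPM at E3.5 and 3.25, 3.27 and 2.77 TPM at E4.5 (1.76). *Zic5*, a zinc finger factor of the epiblast, had 4.88, 4.76 and 3.88 TPM at E3.5 and 11.2, 9.97 and 11.7 TPM at E4.5 (1.12). Other members of the list were already expressed in the ICM. *Tcf7l1*, a repressor of Wnt targets, had 60.6, 57.8 and 58.2 TPM at E3.5 and 91.8, 92.2 and 88.3 TPM at E4.5 and was not called (log2 fold change 0.62). *Etv5*, a target of ERK, had 43.6, 42.4 and 46.6 TPM at E3.5 and 70.4, 69.4 and 74.9 TPM at E4.5 and was not called (0.68), whereas its relative *Etv4* rose from 11.1, 8.69 and 10.4 TPM to 34.02, 38.5 and 32.04 TPM (1.70).

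The DNA methyltransferase genes were not called. *Dnmt3b*, which encodes a de novo methyltransferase, had 428, 426 and 416 TPM at E3.5 and 468, 409.7 and 432 TPM at E4.5 (log2 fold change 0.04, SE 0.09, limma adjusted p = 0.73, 95% interval -0.18 to 0.26). *Dnmt3a* had 98.8, 108 and 109 TPM at E3.5 and 123, 108 and 123 TPM at E4.5 (log2 fold change 0.16, SE 0.10, limma adjusted p = 0.24, 95% interval -0.08 to 0.40). *Dnmt3l*, their catalytically inactive partner, had 256, 263 and 256 TPM at E3.5 and 290.4, 288 and 297 TPM at E4.5 (log2 fold change 0.18, SE 0.08, limma adjusted p = 0.12, 95% interval -0.02 to 0.37). These intervals lie within the fold change a call required, and the sign for *Dnmt3b* turned (-0.00819) without E4.5 replicate 1. Of the maintenance genes, *Dnmt1* had 85.2, 79.8 and 87.5 TPM at E3.5 and 103, 102 and 88.97 TPM at E4.5. *Uhrf1* had 181, 184 and 180.3 TPM at E3.5 and 179, 153 and 171 TPM at E4.5, and neither was called. Of the 17 tested genes of DNA methylation, 4 were higher (23.5%, beside 5.88% of all genes tested) and 2 were lower (11.8%, beside 13.3%). Their median log2 fold change was 0.08. The lower genes were *Dppa3* and *Tet2*, a dioxygenase gene that oxidizes 5-methylcytosine, at 139.5, 131 and 135 TPM at E3.5 and 22.4, 23.1 and 22.3 TPM at E4.5 (log2 fold change -2.53, SE 0.08, limma adjusted p = 1.2e-05), while *Tet1* had 113, 109 and 120.3 TPM at E3.5 and 98.6, 115 and 122 TPM at E4.5 and overlapping groups. The higher genes were *Hells*, which encodes a chromatin remodeller, at 68.9, 71.6 and 66.2 TPM at E3.5 and 148, 153 and 125 TPM at E4.5, and the stress-inducible *Gadd45a*, *Gadd45b* and *Gadd45g*, of which *Gadd45g* had 10.1, 9.25 and 10.8 TPM at E3.5 and 58.4, 71.5 and 61.7 TPM at E4.5 (log2 fold change 2.55) and *Gadd45a* lost its call without E4.5 replicate 2. The count of 4 was 2 without that library and 3 without E3.5 replicate 3 or E4.5 replicate 1.

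**Figure D3:**
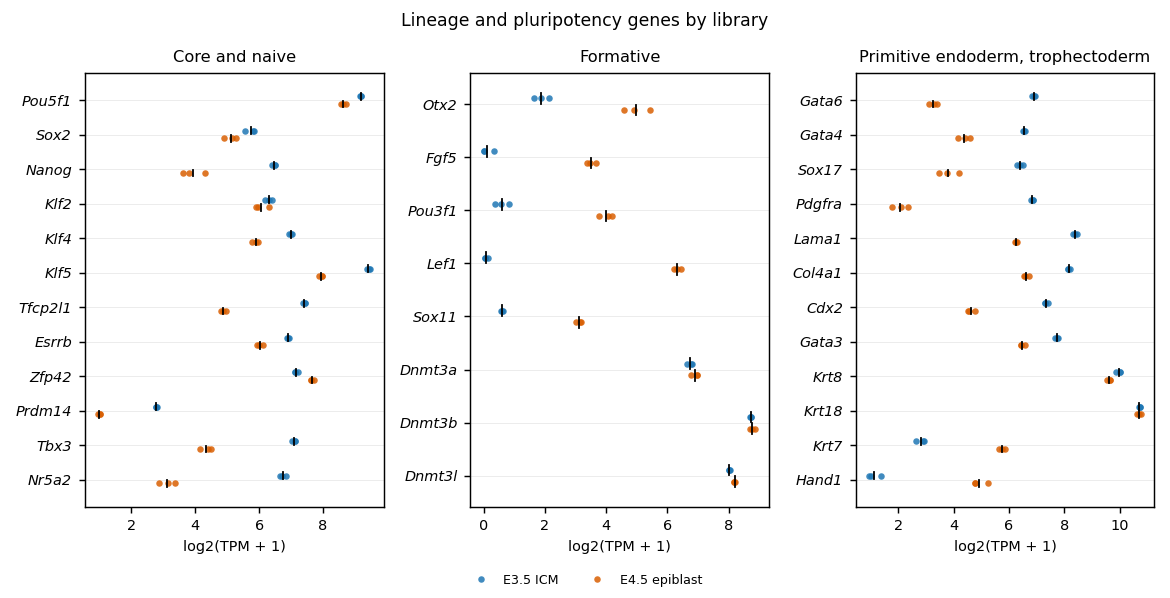
Log2(TPM + 1) of core, naive, formative, primitive endoderm and trophectoderm genes, with 1 point per library and a black tick at the mean of the 3 libraries of a stage. *Nanog*, *Nr5a2* and *Gata6* lie far to the left at E4.5, *Otx2*, *Fgf5*, *Pou3f1* and *Lef1* far to the right, and the points of *Klf2*, *Dnmt3a*, *Dnmt3b* and *Krt18* overlap.

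Signalling pathways of the blastocyst were read in the order of ligands, receptors and targets. LIF, which binds LIFR and gp130 and activates STAT3, sustains naive cells in culture. Of 20 tested genes of this pathway, 3 were higher (15%, beside 5.88% of all genes tested) and 6 were lower (30%, beside 13.3%). Their median log2 fold change was -0.45. The ligand gene *Lif* had 15.6, 11.6 and 14.4 TPM at E3.5 and 0.378, 0.824 and 0.861 TPM at E4.5 (log2 fold change -3.14, SE 0.17, limma adjusted p = 5e-05). Its receptor gene *Lifr* had 75.9, 70.2 and 70.5 TPM at E3.5 and 45.05, 34.2 and 39.7 TPM at E4.5 and was not called (log2 fold change -0.86), and *Il6st*, which encodes gp130, had 23.7, 23.2 and 22.02 TPM at E3.5 and 18.2, 17.8 and 23.1 TPM at E4.5 with overlapping groups. *Stat3* fell from 97.7, 91.3 and 89.3 TPM to 22.2, 23.5 and 18.6 TPM (log2 fold change -2.07, SE 0.11, limma adjusted p = 5.6e-05), and its E5.5 level was 7.81, 9.66 and 7.78 TPM. The target *Tfcp2l1* fell with it, whereas *Socs3*, a feedback inhibitor, had 24.5, 26.2 and 22.3 TPM at E3.5 and 77.8, 70.6 and 72.3 TPM at E4.5 (log2 fold change 1.56, SE 0.10, limma adjusted p = 9.3e-05), *Pim1*, a kinase gene, had 19.3, 19.1 and 17.9 TPM at E3.5 and 50.2, 55.96 and 49.1 TPM at E4.5 (log2 fold change 1.41) and *Junb* had 19.2, 19.9 and 14.04 TPM at E3.5 and 59.9, 46.2 and 54.3 TPM at E4.5 (1.55). *Junb* is also an immediate early gene. *Socs1*, another feedback inhibitor, went from 9.79, 9.503 and 8.49 TPM to 2.296, 1.34 and 3.01 TPM (-1.71), opposite to *Socs3*.

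In the FGF and ERK pathway, 8 of 33 tested genes were higher (24.2%, beside 5.88% of all genes tested) and 6 were lower (18.2%, beside 13.3%). Their median log2 fold change was 0.28. The ligand gene *Fgf4*, which the epiblast precursors express, had 35.6, 35.2 and 40.02 TPM at E3.5 and 48.9, 52.8 and 46.4 TPM at E4.5, higher in each E4.5 library without a call (log2 fold change 0.41, SE 0.10, limma adjusted p = 0.018). Other ligands differed more, with *Fgf10* and *Fgf3* lower and *Fgf15* and *Fgf8* higher at E4.5. *Fgf10* had 29.6, 31.5 and 29.8 TPM at E3.5 and 3.44, 4.17 and 3.78 TPM at E4.5 (log2 fold change -2.71, SE 0.10, limma adjusted p = 1.4e-05), and *Fgf3* had 9.803, 11 and 8.75 TPM at E3.5 and 0.821, 1.53 and 2.53 TPM at E4.5 (log2 fold change -2.09). *Fgf15* had 0.0372, 0.309 and 0 TPM at E3.5 and 5.61, 9.19 and 8.71 TPM at E4.5 (2.97), and *Fgf8* had 0.198, 0.124 and 0.221 TPM at E3.5 and 5.21, 5.23 and 2.58 TPM at E4.5 (2.13). Each of the 4 was below 6 TPM in the libraries where it was low. The receptor gene *Fgfr2*, which marks primitive endoderm and trophectoderm, fell from 218, 218 and 214 TPM to 92.4, 86.8 and 103 TPM (log2 fold change -1.20, SE 0.10, limma adjusted p = 0.00024), and *Fgfr4* fell from 16.7, 17.1 and 15.9 TPM to 5.87, 6.93 and 6.77 TPM (-1.22). *Fgfr1*, the main receptor of the epiblast, had 72.01, 75.1 and 73.7 TPM at E3.5 and 47.05, 50.7 and 46.5 TPM at E4.5 and was not called (-0.61). Among the targets and feedback genes, the phosphatase gene *Dusp6* rose from 49.1, 47.5 and 51.2 TPM to 97.3, 112 and 98.04 TPM (log2 fold change 1.04, SE 0.10, limma adjusted p = 0.00043), and *Egr1* from 2.103, 2.08 and 2.39 TPM to 59.3, 68.1 and 62.7 TPM (4.33). *Egr1* is also an immediate early gene, and the limit set by the handling of the E4.5 cells, given below with those genes, applies to it. *Spry2* fell from 67.3, 75.9 and 66.4 TPM to 36.6, 27.7 and 23.9 TPM (-1.24), *Spry4* had 22.5, 21.7 and 21.8 TPM at E3.5 and 16.4, 9.87 and 14.9 TPM at E4.5 (-0.67, not called) and *Dusp4* had 119, 109.6 and 119 TPM at E3.5 and 60.9, 64.95 and 54.2 TPM at E4.5 (-0.94, not called), so the feedback genes of the pathway did not share a direction. Without 1 E4.5 library, the count of higher genes was 3 to 5, and 3 of the 8 had no E3.5 library above 2 TPM.

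Nodal, the TGF-beta ligand that maintains the epiblast, needs the co-receptor CRIPTO, encoded by *Tdgf1*, and is antagonized by LEFTY proteins. *Nodal* rose from 2.55, 2.701 and 3.4 TPM to 7.85, 7.69 and 8.2 TPM (log2 fold change 1.20, SE 0.11, limma adjusted p = 0.0004), and its E5.5 level was 15.8, 16.9 and 17.5 TPM. *Tdgf1* had 126, 127 and 125 TPM at E3.5 and 184, 172 and 168 TPM at E4.5 and was not called (log2 fold change 0.47, SE 0.08, limma adjusted p = 0.0057). Of the antagonists, *Lefty2* fell from 22.2, 26.7 and 22.7 TPM to 8.98, 8.27 and 8.89 TPM (log2 fold change -1.35, SE 0.10, limma adjusted p = 0.0002), while *Lefty1* had 5.03, 4.66 and 5.99 TPM at E3.5 and 4.94, 1.88 and 1.94 TPM at E4.5 with overlapping groups (log2 fold change -0.75, SE 0.30, limma adjusted p = 0.085). *Skil*, a feedback repressor of SMAD proteins, rose from 20.2, 24.3 and 21.3 TPM to 77.9, 71.4 and 73.9 TPM (log2 fold change 1.72). These were 3 of the 4 calls among 19 tested genes, and the fourth was *Inhbb*, an Activin subunit gene, which went from 2.38, 2.09 and 2.73 TPM to 0, 0.157 and 0 TPM. The shares called were 10.5% higher and 10.5% lower, beside 5.88% and 13.3% of all genes tested. Without 1 E3.5 library the lower count of 2 became 1, and without E4.5 replicate 1 it became 4.

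In the BMP pathway, 3 of 15 tested genes were higher (20%, beside 5.88% of all genes tested) and none was lower (beside 13.3%). *Bmp8b*, a ligand gene, had 0.354, 0.625 and 0.655 TPM at E3.5 and 34.6, 29.7 and 28.4 TPM at E4.5 (log2 fold change 4.37, SE 0.13, limma adjusted p = 1.1e-05), with 1.76, 1.72 and 1.43 TPM at E5.5. *Bmp4* had 31.2, 24.9 and 24.4 TPM at E3.5 and 48.8, 61.5 and 40.6 TPM at E4.5 and was not called (log2 fold change 0.87, limma adjusted p = 0.0099). The targets were unequal. *Smad6*, an inhibitory SMAD gene that BMP induces, rose from 2.42, 2.56 and 2.99 TPM to 6.99, 7.82 and 8.62 TPM (log2 fold change 1.27, SE 0.11, limma adjusted p = 0.00036). *Id1* rose from 9.17, 7.47 and 8.12 TPM to 29.3, 26.2 and 19.1 TPM (1.46), *Id2* had 199.6, 199.7 and 199 TPM at E3.5 and 158, 167 and 180.4 TPM at E4.5 (-0.25, not called) and *Id3* had 19.4, 24.1 and 14.2 TPM at E3.5 and 10.01, 12.96 and 5.72 TPM at E4.5 (-0.97, not called).

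In the Wnt pathway, 4 of 25 tested genes were higher (16%, beside 5.88% of all genes tested) and 5 were lower (20%, beside 13.3%). A further 22 were below the filter. The genes of secreted ligands and antagonists were unequal, with *Wnt3a*, *Wnt6*, *Dkk1* and *Sfrp1* lower, *Sfrp2* higher and *Wnt7b*, *Wnt11* and *Notum* not called. *Wnt3a* had 11.2, 10.9 and 10.9 TPM at E3.5 and 1.004, 0.324 and 0.0555 TPM at E4.5 (log2 fold change -3.09), *Wnt6* had 17.7, 17.6 and 17.6 TPM at E3.5 and 1.91, 1.77 and 1.45 TPM at E4.5 (-2.79) and the antagonist gene *Dkk1* had 23.3, 28.9 and 22.9 TPM at E3.5 and 2.14, 7.56 and 3.85 TPM at E4.5 (-2.35). *Wnt7b*, the most abundant ligand transcript of the list at E3.5, had 60.7, 66.8 and 57.8 TPM at E3.5 and 57.01, 58.9 and 57.9 TPM at E4.5 with overlapping groups. *Sfrp2*, a secreted antagonist gene, rose from 0.0862, 0.568 and 0.0442 TPM to 3.35, 2.84 and 7.09 TPM (log2 fold change 2.08, SE 0.32, limma adjusted p = 0.003). Of the nuclear factors of the TCF family, *Lef1* and *Tcf7* were higher, while *Tcf7l1* and *Tcf7l2* were not called. *Tcf7* rose from 3.27, 4.73 and 3.39 TPM to 27.3, 29.5 and 26.03 TPM (log2 fold change 2.59, SE 0.14, limma adjusted p = 5.3e-05). *Fzd7*, a receptor gene, rose from 8.82, 8.25 and 8.89 TPM to 28.5, 33.2 and 28.4 TPM (1.68). *Axin2*, a widely used target of the pathway, had 23.1, 23.1 and 23.2 TPM at E3.5 and 17.3, 21.6 and 18.6 TPM at E4.5 and was not called (log2 fold change -0.27, SE 0.11, limma adjusted p = 0.086). With median-of-ratios rescaling the lower count was 3, and without any 1 library it was 3 to 4. The higher count was 2 without any 1 E4.5 library.

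The primitive endoderm genes were lower as a group. Of 29 tested, 20 were lower and 1 was higher, against backgrounds of 13.3% and 5.88%, with a median of -1.43. The E4.5 cells had been picked for the absence of the *Pdgfra* reporter, so this gene, at 116, 109 and 116 TPM at E3.5 and 3.25, 4.05 and 2.39 TPM at E4.5, is a check of the selection and no finding. That selection was meant to leave out primitive endoderm cells, so the lower levels of the other genes are no independent result either. *Gata6*, the first regulator of this lineage, had 122, 119 and 112 TPM at E3.5 and 9.48, 8.84 and 7.6 TPM at E4.5 (log2 fold change -3.63, SE 0.11, limma adjusted p = 1.1e-05). *Gata4*, which acts after it, had 92.2, 93.6 and 89.8 TPM at E3.5 and 20.02, 23.1 and 16.8 TPM at E4.5 (log2 fold change -2.16, SE 0.13, limma adjusted p = 7.5e-05). *Sox17*, a further endoderm factor, had 83.3, 77.4 and 89.5 TPM at E3.5 and 17.2, 12.7 and 9.99 TPM at E4.5 (log2 fold change -2.59, SE 0.19, limma adjusted p = 0.00017). The 3 E4.5 libraries kept between 7 and 24 TPM of these factors, and at E5.5 *Gata6* had 7.597, 7.44 and 8.99 TPM and *Gata4* had 26.98, 30.9 and 31.4 TPM. *P4ha2*, a collagen prolyl hydroxylase gene, fell from 103, 111 and 96.3 TPM to 7.83, 6.83 and 10.9 TPM (-3.48), and *Apoa1*, an apolipoprotein gene, from 13.6, 15.8 and 18.3 TPM to 0, 1.51 and 0.851 TPM (-3.33).

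Not every gene of the list followed. *Dab2*, an endocytic adaptor gene, had 249, 234 and 230.5 TPM at E3.5 and 177, 165 and 161 TPM at E4.5 and was not called (log2 fold change -0.50). *Apoe* had 571, 610.0 and 578 TPM at E3.5 and 688, 672 and 782 TPM at E4.5 and was not called (0.28). *Cubn*, an endocytic receptor gene, had 50.1, 48.7 and 47.2 TPM at E3.5 and 96.7, 91.98 and 86.9 TPM at E4.5, higher in each E4.5 library but not called (0.90), although its partner *Lrp2* fell from 189, 194 and 177 TPM to 76.4, 71.6 and 74.8 TPM (-1.32). *Nid2*, which encodes the basement membrane protein nidogen 2, was the single higher gene, at 19.5, 19.03 and 19.2 TPM at E3.5 and 77.7, 92.4 and 81.5 TPM at E4.5 (log2 fold change 2.06, SE 0.10, limma adjusted p = 3.4e-05).

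The basement membrane, the sheet of laminin and collagen IV that primitive endoderm lays under itself, was lower in many of its subunits. Of 24 tested basement membrane and integrin genes, 9 were lower (37.5%, beside 13.3% of all genes tested) and 2 were higher (8.33%, beside 5.88%). Their median was -0.52. Some of them also belong to the primitive endoderm list, and the limit set by the selection of cells applies to them as well. The 3 genes of laminin-111 fell together. *Lama1* had 332, 354 and 318 TPM at E3.5 and 76.97, 73.3 and 76.2 TPM at E4.5 (log2 fold change -2.13, SE 0.09, limma adjusted p = 2.2e-05), *Lamb1* had 393, 412 and 374 TPM at E3.5 and 87.8, 83.95 and 80.5 TPM at E4.5 (log2 fold change -2.21, SE 0.09, limma adjusted p = 2.1e-05) and *Lamc1* had 381, 382 and 355 TPM at E3.5 and 93.8, 91.5 and 101 TPM at E4.5 (log2 fold change -1.96, SE 0.09, limma adjusted p = 2.9e-05). *Col4a1* fell from 297, 279.5 and 280.4 TPM to 95.8, 104 and 91.97 TPM (-1.55), and *Lama5*, the chain of laminin-511, from 105, 108 and 102 TPM to 32.3, 28.8 and 32.1 TPM (-1.73). *Fn1*, which encodes fibronectin, had 235, 223 and 233 TPM at E3.5 and 179, 169 and 154 TPM at E4.5 and was not called (-0.46). The laminin receptor genes changed in opposite directions. *Itga6* fell from 78.5, 79.7 and 67.5 TPM to 21.8, 30.9 and 25.6 TPM (log2 fold change -1.50, SE 0.15, limma adjusted p = 0.00056), *Itga7* rose from 0.505, 1.195 and 1.28 TPM to 61.5, 49.7 and 58.2 TPM (log2 fold change 4.87, SE 0.19, limma adjusted p = 1.8e-05) and *Itgb1*, their common beta chain, had 68.7, 70.4 and 60.9 TPM at E3.5 and 58.2, 62.9 and 61.8 TPM at E4.5 with overlapping groups.

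The trophectoderm genes split. Of 33 tested, 11 were lower (33.3%, beside 13.3% of all genes tested) and 6 were higher (18.2%, beside 5.88%), with a median of -0.47. The largest falls of the list were those of *Enpep*, given above, *Ptges* and *Aqp9*. *Ptges* had 48.5, 45.4 and 45.6 TPM at E3.5 and 2.24, 1.84 and 0.762 TPM at E4.5 (log2 fold change -4.23). *Aqp9* had 20.01, 23.25 and 20.6 TPM at E3.5 and 0.149, 0.698 and 0.283 TPM at E4.5 (-4.03). *Cdx2*, the regulator that sets the lineage apart, had 158, 168 and 157 TPM at E3.5 and 22.6, 26.3 and 22.2 TPM at E4.5 (log2 fold change -2.72, SE 0.10, limma adjusted p = 1.6e-05). *Gata3*, which acts beside it, had 204, 212 and 220.4 TPM at E3.5 and 85.1, 84.6 and 93.7 TPM at E4.5 (log2 fold change -1.26, SE 0.09, limma adjusted p = 0.00015). *Krt8* and *Krt18*, the keratin genes of simple epithelia, stayed among the abundant transcripts. *Krt8* had 1030.0, 1035 and 931 TPM at E3.5 and 797, 814 and 750.2 TPM at E4.5 and was not called (log2 fold change -0.34, SE 0.09, limma adjusted p = 0.025), and *Krt18* had 1695, 1646 and 1705 TPM at E3.5 and 1744, 1651 and 1603 TPM at E4.5 with overlapping groups (log2 fold change -0.01, SE 0.08, limma adjusted p = 0.9), whose sign turned with either rescaling and without E4.5 replicate 3. *Eomes*, a T-box factor of trophoblast and later of mesendoderm, had 99.3, 104 and 94.7 TPM at E3.5 and 148, 154 and 160.2 TPM at E4.5 and was not called (0.63).

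The 6 higher genes were *Krt19*, *Hand1*, *Krt7*, *Sct*, *Tfap2c* and *Elf5*. *Krt19*, a keratin gene of simple epithelia, had 2.23, 1.01 and 2.31 TPM at E3.5 and 60.1, 44.2 and 56.5 TPM at E4.5 (log2 fold change 4.28, SE 0.23, limma adjusted p = 5.3e-05), *Hand1*, a regulator of trophoblast giant cells, had 0.923, 1.01 and 1.56 TPM at E3.5 and 36.5, 26.3 and 26.1 TPM at E4.5 (log2 fold change 3.82, SE 0.18, limma adjusted p = 3.3e-05) and *Krt7* had 6.52, 5.18 and 6.32 TPM at E3.5 and 57.3, 48.4 and 53.4 TPM at E4.5 (log2 fold change 2.95, SE 0.12, limma adjusted p = 2.1e-05). *Elf5* and *Tfap2c*, factors of trophoblast stem cells, were higher, *Elf5* with 48.1, 47.3 and 53.7 TPM at E3.5 and 124, 126 and 130.0 TPM at E4.5 and *Tfap2c* with 37.6, 37.9 and 43.8 TPM at E3.5 and 122, 125 and 121 TPM at E4.5. *Sct*, which encodes the hormone secretin, had 3.79, 2.54 and 6.33 TPM at E3.5 and 22.1, 16.4 and 25.99 TPM at E4.5. At E5.5, *Krt19* had 6.76, 9.77 and 8.96 TPM, *Hand1* had 3.63, 2.49 and 3.65 TPM and *Krt7* had 2.93, 2.75 and 2.702 TPM, below each E4.5 library. Markers of the trophectoderm summed to 3027 to 3197 TPM in these same E4.5 libraries, and the part of remaining trophectoderm transcripts in each of these values was not tested.

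Genes of polarity, junctions and lumen, which the epiblast uses when it becomes an epithelium at implantation, had calls in both directions. Of 37 tested, 7 were higher (18.9%, beside 5.88% of all genes tested) and 6 were lower (16.2%, near the 13.3% of all genes), with a median of -0.17. *Cdh3*, which encodes P-cadherin, had 6.57, 6.76 and 7.53 TPM at E3.5 and 37.3, 35.5 and 31.3 TPM at E4.5 (log2 fold change 2.17, SE 0.11, limma adjusted p = 3.9e-05). *Podxl*, which encodes the anti-adhesive apical protein podocalyxin of lumen membranes, had 14.3, 13.2 and 14.1 TPM at E3.5 and 51.5, 52.05 and 42.5 TPM at E4.5 (log2 fold change 1.74, SE 0.11, limma adjusted p = 9.4e-05), with 148, 161 and 155 TPM at E5.5. *Cldn6*, a claudin gene of the tight junction, had 19.4, 21.5 and 16.6 TPM at E3.5 and 58.05, 42.8 and 48.5 TPM at E4.5 (log2 fold change 1.33, SE 0.15, limma adjusted p = 0.00097), with 122, 120.3 and 129 TPM at E5.5. In each of these 3 genes the lowest E4.5 library was above the highest E3.5 library. They were named as the largest called rises of the list, so this separation follows largely from the choice. *Cdh1*, which encodes E-cadherin, had 316, 306 and 331 TPM at E3.5 and 296, 294 and 267 TPM at E4.5 and was not called (log2 fold change -0.15, SE 0.09, limma adjusted p = 0.21). *Ezr*, which encodes the apical linker ezrin, rose from 259, 238 and 264 TPM to 567, 529.8 and 544 TPM (log2 fold change 1.11). Components of the apical polarity complexes were lower, with *Pard3* at 73.5, 73.5 and 73.5 TPM at E3.5 and 29.4, 28.02 and 26.1 TPM at E4.5 (-1.37), *Patj* at 34.7, 34.5 and 39.6 TPM at E3.5 and 12.4, 15.7 and 13.9 TPM at E4.5 (-1.32) and the kinase gene *Prkcz* at 50.7, 56.7 and 49.5 TPM at E3.5 and 20.6, 16.03 and 19.1 TPM at E4.5 (-1.45). *Prkci*, the other atypical protein kinase C gene, had 71.1, 72.5 and 69.2 TPM at E3.5 and 40.4, 32.6 and 37.9 TPM at E4.5 and was not called (-0.93). *Tjp3*, which encodes ZO-3, fell from 73.03, 73.9 and 75.7 TPM to 17.2, 16.1 and 11.3 TPM (-2.27), while *Tjp1*, which encodes ZO-1, had 82.3, 76.1 and 80.1 TPM at E3.5 and 62.6, 63.3 and 53.3 TPM at E4.5 and was not called (-0.41).

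Genes of glucose uptake, glycolysis and lactate export rose in large part. Of 34 listed, 26 were tested, 16 were higher and 2 were lower, against backgrounds of 5.88% and 13.3%, with a median log2 fold change of 1.17, and 2 of the 16 had no E3.5 library above 2 TPM. The count of higher genes was 14 to 16 when any 1 library was left out. At the entry, *Slc2a1*, which encodes the glucose transporter GLUT1, had 29.6, 28.8 and 22.1 TPM at E3.5 and 244, 251 and 239 TPM at E4.5 (log2 fold change 3.15, SE 0.13, limma adjusted p = 2.4e-05), or 9.11 times the E3.5 mean. *Slc2a3*, which encodes GLUT3, had 161, 151 and 139.5 TPM at E3.5 and 192, 198 and 168 TPM at E4.5 and was not called (0.30). *Hk2*, a hexokinase gene, had 137, 137 and 132 TPM at E3.5 and 71.8, 83.9 and 90.6 TPM at E4.5, lower at E4.5 without a call (-0.72), while *Hk1* went from 3.94, 3.25 and 3 TPM to 9.48, 9.63 and 10.4 TPM (1.31).

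Further down the pathway, *Pfkfb3*, whose product makes the activator of phosphofructokinase, had 2.48, 1.605 and 1.92 TPM at E3.5 and 27.4, 27.4 and 22.6 TPM at E4.5 (log2 fold change 3.16, SE 0.14, limma adjusted p = 2.9e-05). *Aldoa*, an aldolase gene, rose from 434, 443 and 435 TPM to 1034, 959.6 and 983 TPM (1.18), and *Pkm*, the pyruvate kinase gene, from 205, 199.5 and 200.1 TPM to 1102, 1071 and 1098 TPM (log2 fold change 2.43, SE 0.08, limma adjusted p = 1.2e-05). *Eno1*, the enolase gene, had 146, 145 and 149.8 TPM at E3.5 and 1121, 1112 and 1149 TPM at E4.5 (2.93), a value that is uncertain because its near-identical copy *Eno1b* had 45.8, 45.1 and 43.7 TPM at E3.5 and 290.3, 335 and 322 TPM at E4.5 and reads could be split between them. *Gapdh* had 469, 455 and 402 TPM at E3.5 and 739, 708 and 621 TPM at E4.5 and was not called (0.64). The enzymes between uptake and pyruvate thus differed in the size of their change. At the exit, *Ldha*, which encodes a lactate dehydrogenase subunit, had 74.6, 67.1 and 60.9 TPM at E3.5 and 606, 628 and 718 TPM at E4.5 (log2 fold change 3.25, SE 0.12, limma adjusted p = 1.5e-05), or 9.64 times the E3.5 mean, and 1772, 1787 and 1809 TPM at E5.5. The exporter gene *Slc16a3* belonged to the largest rises, and its relative *Slc16a1* rose from 36.5, 38.1 and 37.3 TPM to 84.1, 88.5 and 85.9 TPM (1.19). *Pdk1*, which encodes a kinase that limits entry of pyruvate into mitochondria, rose from 3.58, 3.67 and 2.47 TPM to 14.4, 16.97 and 19.6 TPM (2.09), and *Pdk2* fell from 6.31, 8.01 and 6.67 TPM to 1.498, 2.05 and 1.92 TPM (-1.50). The other lower gene of the list was *Eno2*, with 5.09, 3.02 and 4.82 TPM at E3.5 and 0, 1.89 and 1.195 TPM at E4.5 (-1.50). Its call was lost with a pseudocount of 0.1, with no filter and with a replicate block.

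The nuclear genes of the respiratory chain and ATP synthase did not follow. Of 75 tested, none was higher (beside 5.88% of all genes tested) and 1 was lower (1.33%, beside 13.3%). That gene was the isoform gene *Cox6b2*, at 7.82, 9.82 and 6.33 TPM at E3.5 and 0.346, 0.7104 and 1.88 TPM at E4.5. The median of -0.21 lay near the -0.14 of all genes tested. Genes of cholesterol synthesis and uptake rose in part, with 8 of 25 tested higher (32%, beside 5.88% of all genes tested) and 1 lower (4%, beside 13.3%). Their median log2 fold change was 0.69. *Cyp51* had 10.8, 9.54 and 9.92 TPM at E3.5 and 27.5, 32.6 and 27.6 TPM at E4.5 (log2 fold change 1.45, SE 0.11, limma adjusted p = 0.00017), *Sqle*, the squalene epoxidase gene, had 22.2, 23.4 and 21.4 TPM at E3.5 and 52.5, 51.2 and 58.95 TPM at E4.5 (log2 fold change 1.24) and *Msmo1* had 23.1, 23.2 and 20.5 TPM at E3.5 and 54.4, 46.8 and 60.8 TPM at E4.5 (1.24). The lower gene was *Abca1*, a cholesterol exporter gene, at 3.52, 4.11 and 3.31 TPM at E3.5 and 0.515, 0.741 and 0.622 TPM at E4.5.

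Immediate early genes, which cells induce within minutes of growth factors or stress, and heat shock genes also rose in large part. Of 28 tested, 15 were higher (53.6%, beside 5.88% of all genes tested) and none was lower (beside 13.3%), with a median of 1.27. In 4 of the 15, no E3.5 library was above 2 TPM. Without any 1 library, 11 to 15 were higher. Beyond *Fos* and *Fosb*, *Egr1* had the values given above with the ERK targets. *Ier5* had 0.584, 1.15 and 0.715 TPM at E3.5 and 46.04, 45.3 and 42.1 TPM at E4.5 (log2 fold change 4.66, SE 0.14, limma adjusted p = 1.1e-05). *Fosl1*, which encodes FRA1, had 0, 0.1598 and 0 TPM at E3.5 and 17.1, 21.7 and 18.6 TPM at E4.5 (log2 fold change 4.25), *Dusp1* had 11.3, 9.58 and 9.82 TPM at E3.5 and 101, 99.95 and 104 TPM at E4.5 (3.20), *Jun* had 11.5, 10.4 and 9.27 TPM at E3.5 and 84.3, 84.1 and 90.4 TPM at E4.5 (2.94) and *Atf3* had 1.55, 1.83 and 1.67 TPM at E3.5 and 11.98, 14.4 and 10.7 TPM at E4.5 (2.31). For each of these genes the lowest E4.5 library was above the highest E3.5 library, which follows largely from naming called genes with large rises. At E5.5, *Fos* had 2.79, 4.14 and 3.43 TPM, *Egr1* had 2.59, 2.304 and 2.38 TPM and *Dusp1* had 7.81, 8.47 and 7.02 TPM, again below each E4.5 library. The E4.5 cells alone passed through serum, complement lysis of their neighbours and trypsin, and the part of that handling in these values was not tested and cannot be told apart from the stage.

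The heat shock genes differed among themselves. The inducible *Hspa1a* and *Hspa1b*, near-identical copies whose values are uncertain because reads could be split between them, were higher, *Hspa1a* with 1.56, 1.73 and 1.02 TPM at E3.5 and 11.3, 8.32 and 6.39 TPM at E4.5 and *Hspa1b* with 2.59, 2.93 and 2.6 TPM at E3.5 and 12.9, 14.7 and 11.4 TPM at E4.5. *Hspb1* rose from 105, 100.2 and 104 TPM to 259, 223 and 235 TPM (1.20). Of the abundant chaperone genes, *Hspa8* had 2966, 2832 and 2796 TPM at E3.5 and 2246, 2140.0 and 2107 TPM at E4.5 and *Hsp90aa1* had 3041, 2452 and 2676 TPM at E3.5 and 2971, 2683 and 2600.0 TPM at E4.5, and neither was called. Of 25 tested genes of the unfolded protein and integrated stress response, 3 were higher (12%, beside 5.88% of all genes) and 2 were lower (8%, beside 13.3%). Their median log2 fold change was 0.27. *Ppp1r15a*, which encodes the phosphatase subunit GADD34, had 25.7, 24.2 and 23.6 TPM at E3.5 and 108, 103 and 93.3 TPM at E4.5 (log2 fold change 2.01, SE 0.10, limma adjusted p = 3.6e-05), *Atf4* had 203, 210.1 and 206 TPM at E3.5 and 257, 271 and 291 TPM at E4.5 (0.40, not called) and *Ddit3*, which encodes CHOP, had 25.2, 26.1 and 28.4 TPM at E3.5 and 19.2, 23.4 and 18.8 TPM at E4.5 (-0.36, not called). Of 23 tested p53 targets and BCL2 family genes, 4 were lower (17.4%, beside 13.3% of all genes tested) and 1 was higher (4.35%, beside 5.88%), with a median of -0.57. These shares lay near those of all genes. *Cdkn1a*, the p53 target that encodes the cell cycle inhibitor p21, had 17.2, 23.8 and 18.4 TPM at E3.5 and 2.65, 4.103 and 2.01 TPM at E4.5 (log2 fold change -2.43, SE 0.22, limma adjusted p = 0.0004), *Ccng1* had 52.5, 58.8 and 47.9 TPM at E3.5 and 10.4, 12.7 and 11.8 TPM at E4.5 (-2.10) and *Trp53* itself had 71.7, 69.5 and 60.4 TPM at E3.5 and 62.1, 64.3 and 72.05 TPM at E4.5 with overlapping groups.

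Imprinted genes, which are expressed from 1 parental allele, were called mostly in 1 direction. Of 40 listed, 28 were tested, 11 were higher (39.3%, beside 5.88% of all genes tested) and 1 was lower (3.57%, beside 13.3%), with a median of 0.48. *Phlda2*, a growth-restraining gene of the placenta, had 4.69, 4.24 and 2.95 TPM at E3.5 and 32.9, 29.2 and 34.7 TPM at E4.5 (log2 fold change 2.76, SE 0.16, limma adjusted p = 7e-05). *Cdkn1c*, which encodes the cell cycle inhibitor p57, had 2.08, 3.21 and 2.605 TPM at E3.5 and 22.9, 15.99 and 19.2 TPM at E4.5 (log2 fold change 2.48, SE 0.17, limma adjusted p = 0.00014). *Peg3* had 13.9, 12.6 and 12.2 TPM at E3.5 and 69.3, 66.3 and 61.1 TPM at E4.5 (log2 fold change 2.26, SE 0.10, limma adjusted p = 2.6e-05). In each of the 3, no library of one group reached the other, which follows largely from naming the largest called rises of the list. *Grb10*, a growth factor receptor adaptor gene, rose from 2.41, 2.87 and 2.47 TPM to 14.2, 15.6 and 11.99 TPM (2.05), with 135, 145 and 145 TPM at E5.5. The maternally expressed non-coding RNA genes of the *Dlk1*-*Dio3* cluster also rose, *Rian* from 40.9, 40.5 and 38.7 TPM to 137, 119 and 131 TPM (1.66) and *Meg3* from 17.5, 12.4 and 13.5 TPM to 35.6, 52.9 and 52.1 TPM (1.62). *Igf2* rose from 19.6, 17.9 and 19.7 TPM to 52.9, 55.5 and 52.03 TPM (1.44), while *H19* had 346, 362 and 360.4 TPM at E3.5 and 531, 467 and 561 TPM at E4.5 and *Igf2r* had 63, 66.9 and 60.1 TPM at E3.5 and 47.4, 40.6 and 43.7 TPM at E4.5, and neither was called. The lower gene was the antisense RNA gene *Airn*, at 8.905, 6.73 and 13.2 TPM at E3.5 and 0.3697, 0.703 and 4.505 TPM at E4.5, whose call was lost with no filter and without any 1 of 4 of the libraries. The values do not tell the alleles apart.

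Oocyte and early cleavage genes were mostly below the filter at both stages. Of 40 listed, 25 were below it and 13 were tested. Of these 13, 7 were lower (53.85%, beside 13.3% of all genes tested) and 2 were higher (15.4%, beside 5.88%). The higher genes were *Zp3* and *Zbed3*. *Zp3* had 0.936, 0.539 and 0.134 TPM at E3.5 and 8.395, 11.6 and 6.18 TPM at E4.5 (log2 fold change 2.66). *Zbed3* had 2.08, 2.66 and 3.06 TPM at E3.5 and 8.655, 10.4 and 9.78 TPM at E4.5 (1.56). *Khdc3*, which encodes a subunit of the maternal complex of the oocyte cortex, had 660.2, 666 and 605 TPM at E3.5 and 108, 87.8 and 85.96 TPM at E4.5 (log2 fold change -2.77, SE 0.12, limma adjusted p = 2.6e-05). *Bhmt*, a methyltransferase gene of homocysteine metabolism that the blastocyst expresses, had 52.7, 54.9 and 45.9 TPM at E3.5 and 1.302, 0.484 and 2.49 TPM at E4.5 (log2 fold change -4.51), and *Timd2* had 81.9, 90.1 and 82.7 TPM at E3.5 and 2.43, 5.54 and 4.78 TPM at E4.5 (-4.08). The E4.5 level of *Khdc3* was still above 85 TPM, whereas those of *Bhmt* and *Timd2* were below 6 TPM. Of 14 tested germline genes, 5 were lower (35.7%, beside 13.3% of all genes tested) and 1 was higher (7.14%, beside 5.88%). The lower count was 2 to 3 without any 1 E3.5 library. *Sycp1*, a gene of the meiotic chromosome axis, had 8.02, 8.47 and 8.98 TPM at E3.5 and 3.53, 2.38 and 1.58 TPM at E4.5 (-1.48). Of 25 listed primitive streak and germ layer factors, 16 were below the filter and 9 were tested. Of these 9, 5 were lower (55.6%, beside 13.3% of all genes tested) and 2 were higher (22.2%, beside 5.88%). When any 1 library was left out, 3 to 5 were lower and 0 to 2 were higher. The largest fall of this list was that of *Sox17* (log2 fold change -2.59), given with the primitive endoderm genes. *Gsc*, *Cdx1* and *Zeb1* were at 2.7 to 16.7 TPM in the E3.5 libraries and lower at E4.5 (log2 fold changes -1.81, -1.41 and -1.36), and *Fgf8* and *Hand1*, neither above 2 TPM at E3.5, were the 2 higher genes.

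Of 39 tested cell cycle genes, 5 were higher (12.8%, beside 5.88% of all genes tested) and 2 were lower (5.13%, beside 13.3%), with a median of 0.25. The largest rise of the list was that of the inhibitor gene *Cdkn1c* (log2 fold change 2.48), given with the imprinted genes. The lower genes were *Cdkn1a* (-2.43), given above, and *Cdkn2c*. *Cdkn2c* had 4.56, 4.95 and 4.18 TPM at E3.5 and 0.721, 1.91 and 2.94 TPM at E4.5 (-1.04), and its call was lost in several alternatives. *Ccnd1*, which encodes cyclin D1, had 6.18, 7.496 and 6.63 TPM at E3.5 and 22.4, 23.4 and 22.5 TPM at E4.5 (log2 fold change 1.62, SE 0.10, limma adjusted p = 7.7e-05), *Ccne1* had 53.9, 48.6 and 43.9 TPM at E3.5 and 99.1, 124 and 117 TPM at E4.5 (log2 fold change 1.20) and *E2f5* had 9.19, 7.92 and 7.94 TPM at E3.5 and 22.9, 27.9 and 27.2 TPM at E4.5 (1.53). The mitotic and replication genes were not called, with *Mki67* at 90.03, 87.5 and 86.1 TPM at E3.5 and 115, 116 and 119 TPM at E4.5 (0.40). Of 25 tested genes of MYC, LIN28 and growth, 3 were higher (12%, beside 5.88% of all genes tested), *Ldha* among them. *Mycl* had 2.42, 3.15 and 2.59 TPM at E3.5 and 6.66, 10.97 and 10.2 TPM at E4.5 (1.44), while *Myc* had 68.8, 63.8 and 61.8 TPM at E3.5 and 80.1, 68.5 and 67.4 TPM at E4.5 with overlapping groups and *Lin28a* had 52.5, 57.9 and 55.3 TPM at E3.5 and 76.8, 93.7 and 92.5 TPM at E4.5 (0.65, not called).

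Of 29 tested polycomb genes, 2 were higher and none was lower, with a median of 0.05, and median-of-ratios rescaling gave 5. *Phc1*, a subunit gene of the PRC1 complex, had 39.7, 37.9 and 37.5 TPM at E3.5 and 140.2, 138 and 152 TPM at E4.5 (log2 fold change 1.87, SE 0.09, limma adjusted p = 3.2e-05). *Ezh2*, *Suz12* and *Eed*, the core of PRC2, were not called (log2 fold changes -0.14, -0.05 and -0.37). Of 78 tested cytosolic ribosomal protein genes, 1 was higher and 3 were lower, and of 66 replication-dependent histone genes, 1 was higher and 1 was lower. Many ribosomal protein and histone genes have copies or pseudogenes that share reads, so their values are uncertain. The shares called in these 3 lists were below the 19.2% of all genes tested.

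**Figure D4:**
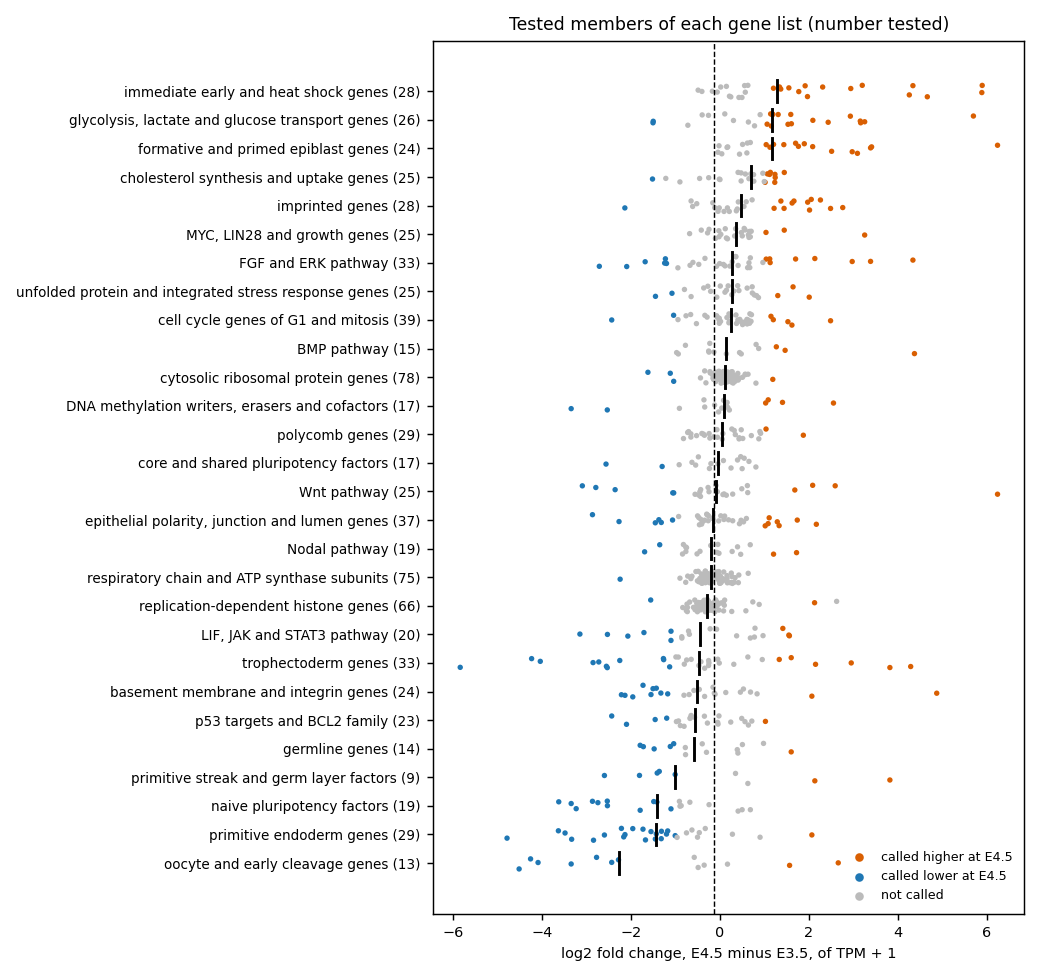
Log2 fold change of TPM + 1 (E4.5 minus E3.5) of each tested member of 28 gene lists, 1 point per gene, with a black tick at the median of the list and a dashed line at the median of all genes tested (-0.14). The medians run from -2.28 for oocyte and early cleavage genes to 1.27 for immediate early and heat shock genes, and lists share some members.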

How the data were processed

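The 6 libraries were made from total RNA (PicoPure extraction, SMARTer Stranded Total RNA-Seq Pico Input v3, ribosomal cDNA depleted), with fragmentation for 6 min at 85 °C, against 4 min at 94 °C for E5.5. Per the labels and the methods of the study, the deposited values are TPM from StringTie, on reads that the authors had trimmed (cutadapt 2.4) and mapped to mm10 (STAR). Each library sums to 1000000 TPM, so depth is unknown and no counting interval is given. The table has 54490 lines for 54446 genes. The 12 identifiers on several lines were summed, and empty cells on 56 lines were counted as 0. Coordinates are those of the table. Biotypes came from GENCODE vM21 (54409 genes matched).

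Of 50225 autosomal genes, the 12580 above 2 TPM in at least 3 of the 6 libraries were fitted as log2(TPM + 1) with limma 3.58.1 in R 4.3.3 (lmFit, eBayes, Benjamini-Hochberg adjustment over all of them). The study used DESeq2 on raw counts over all stages, which TPM does not allow. The fit was tested on simulated data. Genes named are pluripotency and lineage anchors, the 6 coding genes that changed most in each direction, up to 3 called members of each list in each direction and ligands, receptors and inhibitors. Other list members named were chosen after their values were seen. The members and lists were chosen with earlier results of these data known. Alternatives were another pseudocount, filter, rescaling, set of stages, replicate block, intensity trend and leaving out each library. A minimum mean of 10 TPM and 5 further lists were added after the values were seen. Figures used matplotlib 3.10.9, and tables pandas 2.3.3 in Python 3.11.15.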

Additional observations from a re-analysis of the deposited data

How the results depend on the processing

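With a pseudocount of 0.1, no filter (28792 genes), protein-coding genes only (10346), rescaling to the sum of protein-coding genes, all 5 stages in the fit or an intensity trend, between 610 and 832 genes were higher and between 1352 and 1898 lower. With a minimum mean of 10 TPM over the 6 libraries, chosen after seeing the data, 7845 genes were tested, 339 were higher and 786 lower, fewer by construction, and the higher counts fell from 14 to 4 for formative, from 8 to 5 for FGF and ERK and from 11 to 6 for imprinted genes. Leaving out 1 library gave 520 to 736 higher and 1067 to 1738 lower genes. The lower counts were 1075, 1067 and 1104 without E3.5 replicates 1, 2 and 3, because a gene seen at E3.5 alone then no longer passes in 3 libraries. The replicate block gave 739 higher and 1684 lower genes, of which 728 and 1652 were also called without it. Among the genes followed singly, defined below, it changed the call of 1, *Eno2*. Deviations of same-numbered libraries correlated at 0.11, -0.0040 and 0.040, and those of the other pairs at -0.088 to 0.050. Such correlations cannot settle whether libraries of the same number share an origin, which the labels do not state. Signs turned for *Krt18* (0.12 with median-of-ratios rescaling, 0.000637 with the coding sum, -0.048 to 0.013 without 1 library) and *Dnmt3b* (-0.00819 to 0.087 without 1 library), and neither gene was called. Single genes were followed only if they were anchors, among the largest changes, or among up to 3 called members of a list in each direction. Where such a gene was tested in an alternative, 2062 values kept their side of the threshold, 37 lost a call and 1 gained one. Calls of the other genes given in the text were not followed singly. Genes that no longer passed the filter in an alternative, such as *Lef1* without 1 E4.5 library, are not in these counts. Among the smaller list counts, leaving out 1 library gave 0 to 2 lower BMP genes, 2 to 4 higher polycomb genes, 1 to 3 lower cell cycle genes, 1 to 2 higher germline genes, 0 to 1 higher p53 and BCL2 genes and 0 to 2 lower respiratory chain genes. Depth is unknown, so a level listed at 0 gives no upper limit.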

Other observations

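The 5 further groups of genes were chosen after their values were seen, so their counts and values are a description and not a test of these groups. Over all genes tested, 5.88% were higher and 13.3% were lower. Genes of the *Prame* family, which encode leucine-rich repeat proteins expressed in the early embryo and germline, include 3 of the 6 largest falls. Of 8 tested, 5 were lower and none was higher, and in 3 of the 5 no E4.5 library was above 2 TPM, so that 2 were called without any 1 E3.5 library. *Pramel4* had 36.6, 32.9 and 35.1 TPM at E3.5 and 0, 0.0272 and 0 TPM at E4.5, and *Pramef17* had 17.9, 16.5 and 17.4 TPM at E3.5 and 3.95, 4.16 and 3.72 TPM at E4.5 (log2 fold change -1.89), while *Pramef8* had 11.1, 11.4 and 10.8 TPM at E3.5 and 11, 10.1 and 9.21 TPM at E4.5 with overlapping groups. Genes of fatty acid oxidation were lower in part, with 9 of 21 tested lower, none higher and a median of -0.94. *Slc22a5* and *Slc25a20*, carriers of carnitine and acylcarnitine, were among them, *Slc22a5* with 24.4, 23.2 and 21.5 TPM at E3.5 and 0.993, 2.17 and 1.95 TPM at E4.5 and *Slc25a20* with 38.01, 39.5 and 34.6 TPM at E3.5 and 3.42, 5.86 and 4.79 TPM at E4.5. *Cpt1a*, the gene of the rate-limiting transferase, fell from 21.6, 22.2 and 21.9 TPM to 6.65, 4.504 and 4.31 TPM (log2 fold change -1.91), and *Acadl*, a dehydrogenase gene of long chains, from 112, 99.2 and 113 TPM to 30.1, 19.6 and 24.4 TPM (-2.11).

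Retinoid genes changed in both directions. *Adh1*, *Stra6* and *Aldh1a1*, which serve vitamin A uptake and oxidation, were lower, with *Stra6* at 16.8, 16.2 and 14.3 TPM at E3.5 and 0.357, 0 and 0.178 TPM at E4.5, and none of the 3 could be tested without 1 E3.5 library, because none had an E4.5 library above 2 TPM. The receptor gene *Rarg* and the degrading enzyme gene *Cyp26a1* were higher, *Rarg* with 10.8, 9.98 and 6.89 TPM at E3.5 and 36.6, 35.6 and 41.8 TPM at E4.5 and *Cyp26a1* with 1.703, 0.717 and 1.49 TPM at E3.5 and 9.03, 7.87 and 4.94 TPM at E4.5. Of 26 tested contractile and cytoskeletal genes, 8 were higher and 1 was lower, and the higher count was 4 without any 1 E4.5 library. *Cald1*, which encodes caldesmon, had 5.01, 5.79 and 3.52 TPM at E3.5 and 91.4, 100.4 and 99.4 TPM at E4.5, *Limch1* had 1.84, 1.96 and 3.21 TPM at E3.5 and 52.5, 50.8 and 49.5 TPM at E4.5 and *Tpm2*, a tropomyosin gene, had 6.49, 6.51 and 6.297 TPM at E3.5 and 104, 88.6 and 91.7 TPM at E4.5, while *Actb* had 5168, 4679 and 4143 TPM at E3.5 and 4858, 4844 and 4698 TPM at E4.5 with overlapping groups and *Myh10* fell from 456, 454 and 462 TPM to 213, 202 and 195 TPM (-1.17). Of 12 tested genes of NF-kB, 3 were higher and 1 was lower. The feedback inhibitor gene *Nfkbia* had 5.38, 7.33 and 6.77 TPM at E3.5 and 120.0, 108 and 98.02 TPM at E4.5 (log2 fold change 3.87) and *Nfkbiz* had 6.08, 4.61 and 4.13 TPM at E3.5 and 50.6, 43.2 and 43.05 TPM at E4.5, beside E5.5 levels of 4.04, 5.26 and 4.82 TPM and 4.81, 8.38 and 5.09 TPM, whereas *Rela*, a subunit of the factor itself, had 16.8, 16.9 and 17.2 TPM at E3.5 and 17.96, 16.7 and 15.6 TPM at E4.5. As for the immediate early genes, the part of handling in these values was not tested.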
